A study of Mus musculus with 21 samples.

Results

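Kinesins are motor proteins that walk along or shorten microtubules, and the family was followed here across cells of mouse cerebellar tumours sorted for the surface antigen CD15. Members were taken by name: every probe set of the array whose gene symbol starts with Kif and a digit or with Kifc, which found 104 of 45101 probe sets, for 41 genes. Of these genes, 34 passed the filter on dim probe sets and were tested among 12367 genes in all, each through its brightest probe set. The 41 genes were divided by textbook role into 13 mitotic kinesins (12 tested), 17 transport kinesins (all tested) and 11 others (5 tested). The 7 genes below the filter were Kif15 among the mitotic ones and Kif12, Kif26a, Kif27, Kif28, Kif2b and Kif9 among the others.

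As background, mitotic kinesins are made in dividing cells, where they build the spindle, move chromosomes and organise the midzone at which the daughter cells part. Transport kinesins carry vesicles, mitochondria and other cargo, and the neuronal members serve the long traffic from cell body to axon. In the cerebellum, granule neuron precursors divide after birth under Hedgehog signalling, then leave the cell cycle and extend axons. Medulloblastomas of Patched mice arise in this lineage.

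The 21 samples were total RNA of tumour cells from Patched medulloblastomas in 4 groups, named by the titles: conventional CD15 positive (n = 6), conventional CD15 negative (n = 6), Math1-GFP CD15 positive (n = 4) and Math1-GFP CD15 negative (n = 5). CD15 is a carbohydrate carried by several kinds of progenitor cell; Math1, now Atoh1, marks the dividing granule neuron precursors, and GFP is a fluorescent protein. The allele, the age of the mice, the sequence that drives GFP and whether animals were pooled are not given in the labels. For the 9 Math1-GFP samples the description field names conventional tumours instead, and groups here follow the titles. Nothing in the labels says whether the samples of a group are separate animals, and the p-values then reflect only how these samples vary, in part perhaps for technical reasons. Titles share the numbers 2 to 6 between the conventional groups, and same-numbered arrays are called pairs here; the unnumbered conventional arrays are called array 1. All 7 granule neuron precursor markers listed (Atoh1, Barhl1, Meis1, Neurod1, Pax6, Zic1 and Zic2) passed the filter, with a summed signal between 13038 and 28019 on the 21 arrays. None of 4 erythroid markers passed it.

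In conventional tumours, mitotic kinesins were higher and neuronal transport kinesins lower in the CD15 positive than in the CD15 negative cells. Of the 12 mitotic kinesins tested, 7 were higher at an adjusted p under 0.05 (limma's moderated test with Benjamini-Hochberg adjustment over all genes, used for every adjusted p below), beside 3.05% of all genes called higher. Of the 17 transport kinesins, 6 were lower, beside 5.09% of all genes called lower. None of the 5 others passed, and in either direction 8.13% of all genes were called (4.90% without array 5 of the CD15 negative cells, and up to 8.89% leaving out 1 other array). The median log2 difference was 0.61 over the mitotic kinesins, with all 12 values above 0 (0.22 to 0.87), and -0.34 over the transport kinesins, with 14 of 17 below 0 (-1.81 to 0.36). Over all genes the median was -0.02. Differences are on the log2(signal + 32) scale, which makes the change of dim genes smaller. In bulk RNA, fewer cells of a type and less RNA per cell cannot be told apart.

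**Figure D1:**
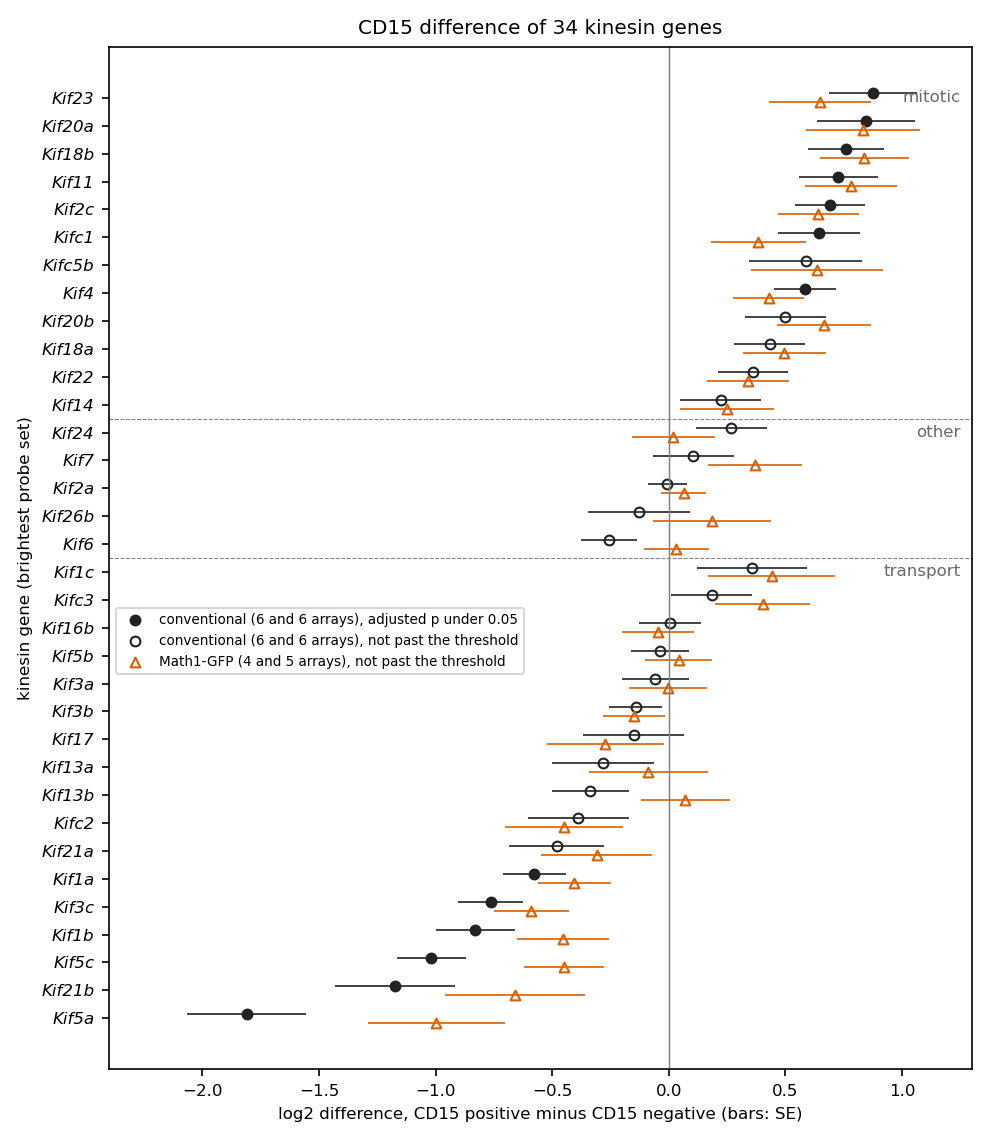
The log2 difference between CD15 positive and CD15 negative cells (x axis) is plotted for the 34 kinesin genes tested (y axis), circles for conventional and triangles for Math1-GFP tumours, with bars of 1 SE and filled marks for adjusted p under 0.05. All 12 mitotic kinesins lie right of 0 in both models, and Kif5a lies farthest left, at -1.81 in conventional tumours.

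Among the spindle motors, Kif18b, a kinesin-8 that acts at the plus ends of microtubules, had a signal of 404, 568 and 663 (lowest, median and highest) in conventional CD15 positive cells and of 224, 317 and 442 in CD15 negative cells. The ranges overlapped, and all 5 pairs were higher in the CD15 positive array. The difference was 0.76 ± 0.16 (SE; log2, adjusted p = 0.0062). Kif2c, a kinesin-13 that takes microtubules apart at centromeres, had signals of 661, 779 and 931 against 396, 452 and 569, so that each CD15 positive array lay above each CD15 negative one. Its difference was 0.69 ± 0.15 (adjusted p = 0.0064). Kif11, the kinesin-5 that pushes spindle poles apart, was higher by 0.73 ± 0.17 (adjusted p = 0.010), also without overlap. Within the arrays numbered 2 to 5 alone, Kif11 gave 0.68 with an adjusted p of 0.062.

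Kif23, Kif4, Kif20a and Kifc1 were also higher. Kif23, a subunit of centralspindlin, had signals of 462, 539 and 808 in CD15 positive and 186, 301 and 506 in CD15 negative cells. The groups overlapped through array 6 of the CD15 negative cells, and all 5 pairs were higher. The difference of 0.87 ± 0.19 (adjusted p = 0.0065) was the highest of the 34 kinesins. Kif4, a chromokinesin that also works with Prc1 at the midzone, had signals of 192, 240 and 275 against 109, 159 and 190, without overlap by a small margin. It was higher by 0.58 ± 0.13 (adjusted p = 0.0087). Kif20a, which takes the chromosomal passenger complex to the midzone, was higher by 0.85 ± 0.21 (adjusted p = 0.015). Kifc1, a minus-end directed motor that bundles spindle microtubules, was higher by 0.64 ± 0.17 (adjusted p = 0.025). Its call was lost when array 3 or array 5 of the CD15 positive cells, or array 4 or array 5 of the CD15 negative cells, was left out (adjusted p of 0.061, 0.051, 0.059 and 0.075).

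The other 5 mitotic kinesins tested did not pass in conventional tumours: Kif20b, a motor of late cytokinesis, had 0.50 (adjusted p = 0.083), Kif18a 0.43 (adjusted p = 0.087), Kifc5b 0.59 (adjusted p = 0.16), the chromokinesin Kif22 0.36 (adjusted p = 0.16) and Kif14 0.22 (adjusted p = 0.50). Kifc5b is a near-identical copy of Kifc1, and probes may not separate them. Kif22 was read by 3 probe sets past the filter, and the brightest had the smallest difference of the 3 (0.36 to 0.93). The others passed in a fit of every probe set, at 0.93 (adjusted p = 8.9e-04) and 0.92 (adjusted p = 0.0015). Kif15, with a median signal of 5.14, was too dim to test.

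**Figure D2:**
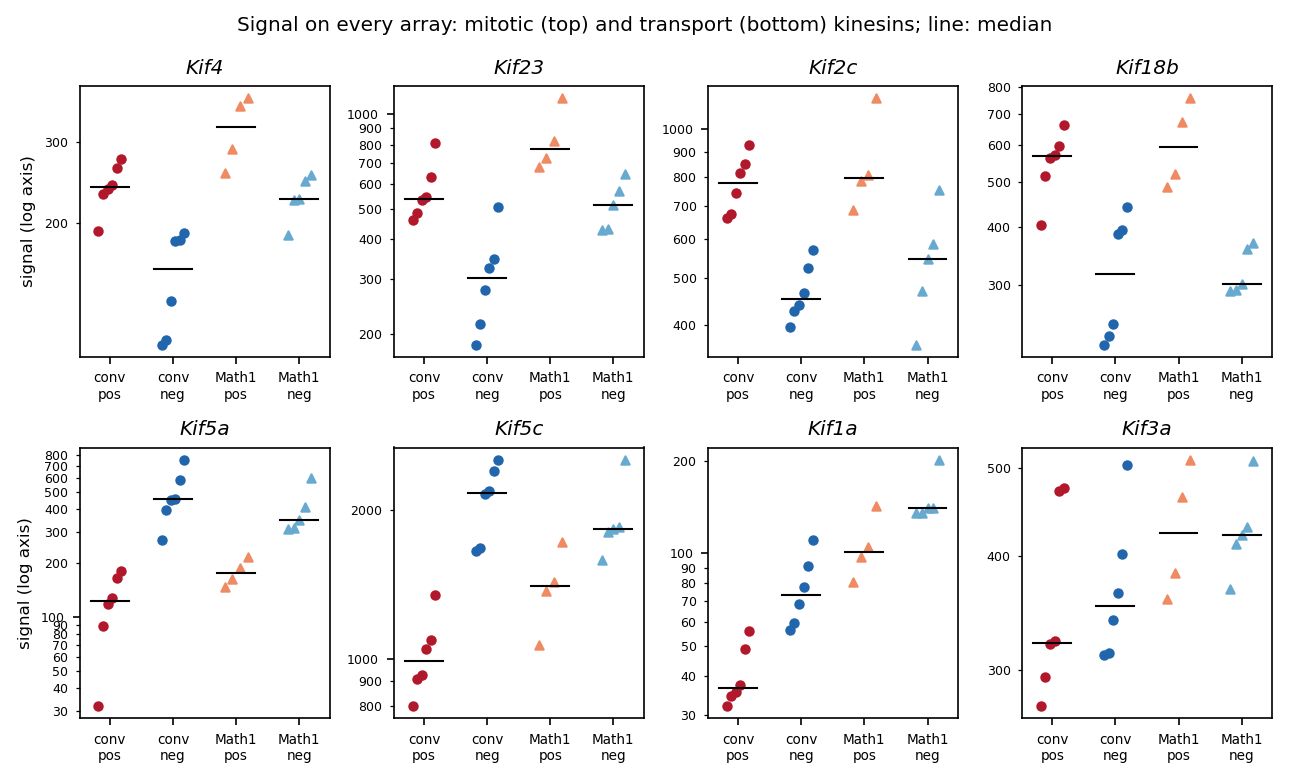
Signal on a log axis (y axis) of 4 mitotic kinesins (top) and 4 transport kinesins (bottom) on every array of the 4 groups (x axis), circles for conventional and triangles for Math1-GFP arrays, with a line at each group's median. CD15 negative arrays are lower for Kif4 and higher for Kif5a in both models without overlap, by a small margin for Kif4, while the groups of Kif3a overlap.

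Of the transport kinesins, the neuronal heavy chains of kinesin-1 had the smallest p. Kif5a had signals of 31.8, 123 and 182 in conventional CD15 positive and of 269, 454 and 755 in CD15 negative cells. Every CD15 positive array lay below every CD15 negative one, and array 4 of the CD15 positive cells was the lowest. The difference was -1.81 ± 0.25 (adjusted p = 2.5e-04), a 3.51-fold lower value and the 26th smallest p of 12367 genes. Kif5c had signals of 801, 987 and 1346 against 1652, 2169 and 2522, again with no overlap. It was lower by a log2 difference of -1.02 ± 0.15 (adjusted p = 3.4e-04). For Kif5b, the heavy chain that most cell types make, the difference was -0.04 ± 0.12 with a 95% interval of -0.29 to 0.22 (adjusted p = 0.91). Its 6 probe sets past the filter ranged from -0.36 to -0.04, and the brightest had the smallest difference.

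Among the kinesin-3 motors, Kif1a, which carries synaptic vesicle precursors, had signals of 32.01, 36.6 and 55.8 in CD15 positive and of 56.6, 73.2 and 110 in CD15 negative cells. The groups did not overlap, with a gap of less than 1 unit of signal. The difference was -0.58 ± 0.13 (adjusted p = 0.010), and with the mean of its 2 probe sets it was -0.35 with an adjusted p of 0.059. Kif1b, which carries mitochondria and synaptic vesicle precursors, had signals of 279, 448 and 719 against 612, 917 and 958. The groups overlapped, and the CD15 positive array was lower in all 5 pairs. Kif1b was lower by a log2 difference of -0.83 ± 0.17 (adjusted p = 0.0045), and 1 of its 7 probe sets past the filter pointed the other way. Kif1c, a motor linked to traffic with the Golgi, was not lower, at 0.36 ± 0.23 (adjusted p = 0.40).

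Of the kinesin-2 family, only Kif3c passed. Kif3c, its neuron-enriched member, had signals of 171, 228 and 284 in CD15 positive and 290, 378 and 586 in CD15 negative cells, without overlap. It was lower, at -0.76 ± 0.14 (adjusted p = 0.0019), and its other probe set gave -0.90. Kif3a, which joins Kif3b and Kifap3 in the motor that builds cilia, had signals of 274, 321 and 475 against 312, 352 and 503. These groups overlapped almost fully, and the difference was -0.06 ± 0.14, with a 95% interval of -0.36 to 0.24 (adjusted p = 0.87). The CD15 positive array was the lower one in all 5 pairs, with differences of -0.17 to -0.07. The 4 probe sets of Kif3a past the filter ranged from -0.32 to -0.06, and the brightest had the smallest difference. Kif3b gave -0.14 ± 0.11 (adjusted p = 0.52). Of the kinesin-4 motors that act on neuronal microtubules, Kif21b was lower by a log2 difference of -1.18 ± 0.26 (adjusted p = 0.0071), and Kif21a had -0.48 (adjusted p = 0.16).

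Of the kinesins in neither class, Kif7, which sits at the tip of the primary cilium and regulates Gli proteins in Hedgehog signalling, had signals of 35.5, 76.0 and 91.9 in conventional CD15 positive and 26.7, 70.0 and 101 in CD15 negative cells. The groups overlapped, and the difference of 0.10 ± 0.17 (adjusted p = 0.79) turned to -0.02 in the numbered arrays. Kif2a, a depolymerase of both spindles and axon branches, had -0.01 ± 0.08 (adjusted p = 0.98). Its 5 probe sets ranged from -0.26 to 0.24, 3 of them against the one used.

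**Figure D3:**
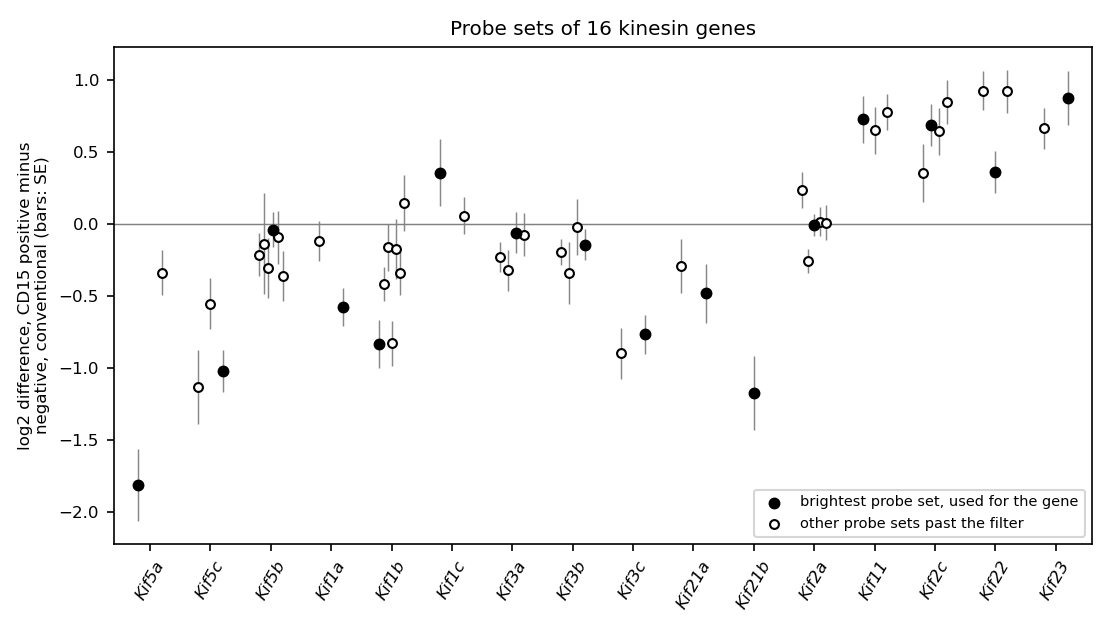
The conventional CD15 log2 difference (y axis, bars of 1 SE) is plotted for each probe set past the filter of 16 kinesin genes (x axis), with the brightest, which stands for the gene, filled. The probe sets of Kif5a range from -1.81 to -0.34 and those of Kif1b from -0.83 to 0.15, so that the size of a change depends on the probe set.

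Counted by pairs of conventional arrays, 10 of the 12 mitotic kinesins had the higher value on the CD15 positive side in each of the 5 pairs, as did 13.8% of all genes tested. The exceptions, Kif18a and Kif22, were higher in 4 pairs. Of the 17 transport kinesins, 8 were lower in all 5 pairs (Kif1a, Kif1b, Kif21a, Kif21b, Kif3a, Kif3c, Kif5a and Kif5c), as were 16% of all genes. Kif1c was the transport kinesin higher in all 5. Without overlap between the groups of 6, Kif11, Kif2c and Kif4 were higher, and Kif1a, Kif3c, Kif5a and Kif5c were lower, where 1.89% and 2.52% of all genes were. With the pair number as a block (10 conventional arrays), 15 kinesins passed in place of 13, beside 9.99% of all genes, the added ones being Kif18a (0.54 ± 0.15, adjusted p = 0.030) and Kif6 (-0.38 ± 0.11, adjusted p = 0.047), a motor of the group in neither class.

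Whole-array correlation had separated the conventional arrays into the numbers 2 to 5 and the remainder (array 1 and number 6) in earlier work on these data. Within numbers 2 to 5, 13 kinesins passed, beside 7.24% of all genes, with a median of 0.70 over the mitotic and -0.44 over the transport members. Within array 1 and number 6, with 2 arrays a group, 0 kinesins and 0% of all genes passed in limma, 9 kinesins and 7.82% of all genes had an unadjusted p under 0.05, and the medians were 0.49 and -0.22. Kif5a was -1.22 ± 0.34 there (adjusted p = 0.33). With these conventional arrays alone beside the Math1-GFP ones, 7 kinesins passed in the average of both models, beside 2.02% of all genes, and 6 between the models, beside 21.2%.

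Promoters of mitotic kinesins are shown because 7 of these genes were higher in the same cells. Dividing cells switch such genes on in part through the cell cycle genes homology region (CHR) near the start of transcription, often with CCAAT boxes before it. RefSeq's promoter table (build GRCm38.p6) holds 250 bases before and 50 from the start on for 33 of the 41 kinesins. The CHR was searched as TTTGAA and the CCAAT box as CCAAT, on both strands. Each line gives 90 bases before the start and 10 from it on, 5' to 3', with matches to either motif on either strand in capitals; the first 5 lines were chosen because they hold both motifs in these 100 bases, as no other mitotic kinesin in the table did (3 held 1 of the motifs and 4 neither, of 12). Of those 5 genes, Kif22 did not pass in conventional tumours through its brightest probe set. Kif4, with a CCAAT box alone, and Kif2c, with neither, are shown beside them because both passed. Kif5c and Kif3c, 2 transport kinesins that were lower, stand for contrast and hold no match here. Kif1a and Kif1b were also lower and are not shown, though each holds a match in this window at 1 of its 2 starts. In Kif1a it is a CHR 44 bases before the start, and in Kif1b a CCAAT box 87 bases before it.
Kif11 (chr19:37376292-37376391, plus strand): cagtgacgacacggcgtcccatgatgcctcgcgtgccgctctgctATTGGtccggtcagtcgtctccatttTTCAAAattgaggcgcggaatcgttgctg
Kif22 (chr7:127042411-127042510, minus strand): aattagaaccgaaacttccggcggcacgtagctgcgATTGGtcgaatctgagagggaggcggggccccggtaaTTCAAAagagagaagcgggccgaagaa
Kif18b (chr11:102925115-102925214, minus strand): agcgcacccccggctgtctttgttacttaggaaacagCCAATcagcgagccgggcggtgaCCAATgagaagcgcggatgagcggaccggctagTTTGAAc
Kif23 (chr9:61946790-61946889, minus strand): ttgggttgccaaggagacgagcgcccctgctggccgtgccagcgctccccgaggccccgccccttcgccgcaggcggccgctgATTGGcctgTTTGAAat
Kifc1 (chr17:33890624-33890723, minus strand): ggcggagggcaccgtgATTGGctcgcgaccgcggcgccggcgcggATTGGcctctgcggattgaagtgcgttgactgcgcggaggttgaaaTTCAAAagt
Kif4 (chrX:100625975-100626074, plus strand): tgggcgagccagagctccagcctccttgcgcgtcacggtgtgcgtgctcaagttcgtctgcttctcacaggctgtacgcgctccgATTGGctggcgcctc
Kif2c (chr4:117178763-117178862, minus strand): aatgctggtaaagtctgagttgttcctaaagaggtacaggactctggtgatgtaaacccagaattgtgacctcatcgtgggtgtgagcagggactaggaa
Kif5c (chr2:49619196-49619295, plus strand): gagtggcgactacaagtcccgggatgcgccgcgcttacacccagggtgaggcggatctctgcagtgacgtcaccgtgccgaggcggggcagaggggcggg
Kif3c (chr12:3365042-3365141, plus strand): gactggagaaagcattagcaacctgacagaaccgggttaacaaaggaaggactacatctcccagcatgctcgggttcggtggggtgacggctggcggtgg

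A CHR lay in the 300 bases of 11 of the 12 mitotic kinesins with a promoter in the table (91.7%), of 1 of 11 transport kinesins (9.09%) and of 5466 of 27025 genes in all (20.2%). The mitotic kinesin without one was Kif18a, and the transport kinesin with one was Kif1a, at the second of its 2 starts. A CCAAT box lay in 8 of 12 mitotic kinesins (66.7%), 3 of 11 transport kinesins (27.3%) and 41.1% of all genes. Both motifs were found in 8 of 12 mitotic kinesins and 0 of 11 transport kinesins, beside 7.97% of all genes, and none of the CHR matches in mitotic kinesins overlapped a CCAAT match. In 9 mitotic kinesins a CHR began between 20 bases before and 30 after the start, a window chosen after the positions were seen that held one in 3.12% of all genes. As the lines above show, it began 19 bases before the start in Kif11 and 17 before it in Kif22. These are matches of letters, not sites at which binding was measured, and no test was made of them against the expression values. Kif5a and Kif20a have no entry in the table. The 12 mitotic kinesins counted here include Kif15, which was too dim to test, and both Kifc1 and its near-identical copy Kifc5b.

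The proteins that work with these motors were examined as 3 lists. Of 12 partners of mitotic kinesins, 9 were higher in conventional CD15 positive cells, beside 3.05% of all genes called higher. The median log2 difference of the 12 partners was 0.73, with all values above 0. Birc5, of the chromosomal passenger complex that Kif20a relocates, was higher by 1.00 ± 0.10 (adjusted p = 1.1e-05). Its kinase Aurkb was higher by 1.01 ± 0.20 (adjusted p = 0.0035), the spindle protein Hmmr by 0.89 ± 0.16 (adjusted p = 0.0019) and Prc1, which recruits Kif4, by 0.70 ± 0.14 (adjusted p = 0.0045). Racgap1, the partner of Kif23 in centralspindlin, had 0.54 (adjusted p = 0.053).

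Of 14 light chains and cargo adaptors tested, 5 were lower and none higher, with a median of -0.44, beside 5.09% of all genes called lower. Klc1, a light chain of kinesin-1, was lower by a log2 difference of -1.30 ± 0.21 (adjusted p = 7.1e-04). The cargo adaptor Kidins220 had -1.08 ± 0.17 (adjusted p = 5.6e-04), the mitochondrial adaptor Trak1 -0.63 ± 0.15 (adjusted p = 0.011) and the JNK scaffold Mapk8ip2 -0.75 ± 0.19 (adjusted p = 0.015). Cytoplasmic dynein and dynactin, the motor that runs the other way, had 1 member higher and 2 lower of 19, with a median of -0.21. Of all genes, 3.05% were called higher and 5.09% lower, and on so few calls the list as a whole is not read as changed. Nde1, a dynein regulator of dividing progenitors, was higher by 0.90 ± 0.14 (adjusted p = 6.7e-04), while its paralogue Ndel1 had -0.41 ± 0.10 (adjusted p = 0.016) and the dynactin subunit Dctn1 -0.49 ± 0.14 (adjusted p = 0.031).

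Markers of other cell types were examined in the same comparison. Of 8 neuron markers, 7 were lower in conventional CD15 positive cells (median -1.12), beside 5.09% of all genes. Their summed signal was 5467 to 10698 on CD15 positive and 10649 to 24606 on CD15 negative arrays. Of 8 microglia markers, all had positive differences and none passed (median 0.85), with summed signals of 575 to 11043 and 233 to 2741. No neuron or microglia marker fell below the filter. Astrocyte markers had a median of 0.18 (5 of 6 tested), oligodendrocyte lineage markers -0.01 (4 of 6) and endothelial markers -0.06 (4 of 5), with none called. Of the 7 granule neuron precursor markers, 1 was lower (Neurod1, a gene of cells leaving the cell cycle) and 6 had negative differences (median -0.24; summed signal 13038 to 17114 against 16983 to 28019). The part of any of these in the kinesin differences was not tested.

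In Math1-GFP tumours the same comparison had 4 and 5 arrays, and 0 kinesins passed in limma, where 0.0404% of all genes did. That share rested on 5 genes; leaving out 1 array gave 0 genes in 9 of 21 fits and up to 26 (0.210%, without conventional CD15 negative array 5). At an unadjusted p under 0.05 stood 15 kinesins (9 mitotic and 6 transport), beside 8.68% of all genes. The mitotic median was 0.64, with all 12 above 0 (0.25 to 0.84), and the transport median was -0.27, with 13 of 17 below 0. With the conventional pairs as a block, which left the Math1-GFP values as they were and changed the shared estimate of the spread, 3 kinesins passed, beside 1.40% of all genes: Kif18b (0.84, adjusted p = 0.018), Kif20a (0.83, adjusted p = 0.032) and Kif3c (-0.59, adjusted p = 0.037). Over the alternatives run, the count was 0 except with this block (3), with array weights (5, beside 1.51% of all genes) and with consecutive Math1-GFP numbers as further pairs in the block (10, beside 7.49% of all genes). The labels do not state that last pairing, which was tried after the data were seen, and no call is drawn from it.

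Kif18b had signals of 757, 672, 488 and 520 on the Math1-GFP CD15 positive arrays and of 359, 293, 370, 292 and 302 on the CD15 negative ones. The 2 groups did not overlap, and the difference was 0.84 ± 0.19 (adjusted p = 0.096). Kif23 had signals of 723, 1121, 821 and 679 against 429, 570, 646, 514 and 432, also without overlap (0.65 ± 0.22, adjusted p = 0.30). Kif4 had signals of 373, 359, 257 and 289 against 247, 224, 254, 188 and 226, without overlap by a small margin (0.43 ± 0.15, adjusted p = 0.34). Kif2c had signals of 687, 1155, 808 and 786 against 366, 545, 752, 469 and 586, where CD15 negative array 6 reached into the CD15 positive range (0.64 ± 0.17, adjusted p = 0.16). Kif11 had 0.78 ± 0.20 (adjusted p = 0.13) and Kif20a 0.83 ± 0.24 (adjusted p = 0.18). Array 5 was the highest of the CD15 positive arrays for Kif23 and Kif2c and array 6 the highest of the CD15 negative ones.

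Kif5a had signals of 187, 163, 147 and 217 on the CD15 positive and 595, 348, 312, 313 and 414 on the CD15 negative arrays. There was no overlap, and CD15 negative array 2 was the highest (-0.997 ± 0.29, adjusted p = 0.19). Kif5c had signals of 1721, 1067, 1368 and 1432 against 2529, 1831, 1584, 1807 and 1845. Its groups overlapped through array 1 of the CD15 positive cells (-0.45 ± 0.17, adjusted p = 0.38). Kif3c had signals of 261, 230, 238 and 259 against 349, 414, 338, 410 and 436, without overlap (-0.59 ± 0.16, adjusted p = 0.16). Kif1b had signals of 618, 696, 697 and 816 against 863, 970, 936, 930 and 1203, without overlap (-0.45 ± 0.20, adjusted p = 0.50).

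Kif1a, with signals of 142, 97.6, 80.9 and 105 against 201, 135, 136, 141 and 140, overlapped through CD15 positive array 1 (-0.41 ± 0.16, adjusted p = 0.39). Kif3a had 359, 510, 464 and 383 against 413, 422, 508, 431 and 369. Its groups covered the same range, and the 95% interval of the difference was -0.35 to 0.34. Kif7 had signals of 86.5, 85.2, 72.7 and 83.2 on CD15 positive and 69.3, 46.2, 58.6, 54.6 and 53.4 on CD15 negative arrays, without overlap (0.37 ± 0.20, adjusted p = 0.65). In all, 5 mitotic kinesins and Kif7 were higher and 3 transport kinesins lower without overlap, where 2.54% and 2.78% of all genes were.

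The neuron markers were also lower in the Math1-GFP CD15 positive cells for 8 of 8 genes (median -0.72; summed signal 6624 to 10698 against 10800 to 16303), with none called, and microglia markers were higher for 7 of 8, with none called (median 0.46; 278 to 1325 against 166 to 439). Astrocyte markers had positive differences in 4 of 5 tested, up to 1.41, with none called (median 1.00; summed signal 1359 to 3476 against 736 to 1867). Oligodendrocyte lineage markers had a median of 0.24 with none called, and endothelial markers had 0.03. Of the 7 granule neuron precursor markers, 5 had negative differences and none was called (median -0.34), and their mean log2(signal + 32) was 10.43 to 10.74 against 10.77 to 11.09, without overlap. Their part in the kinesin values was not tested. Birc5 was the mitotic partner that passed, at 0.74 ± 0.12 (adjusted p = 0.030), where 0.0162% of all genes were called higher. All 12 partners had values above 0 (median 0.72). The light chains and adaptors had a median of -0.19, and dynein and dynactin of -0.06, with none called.

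**Figure D4:**
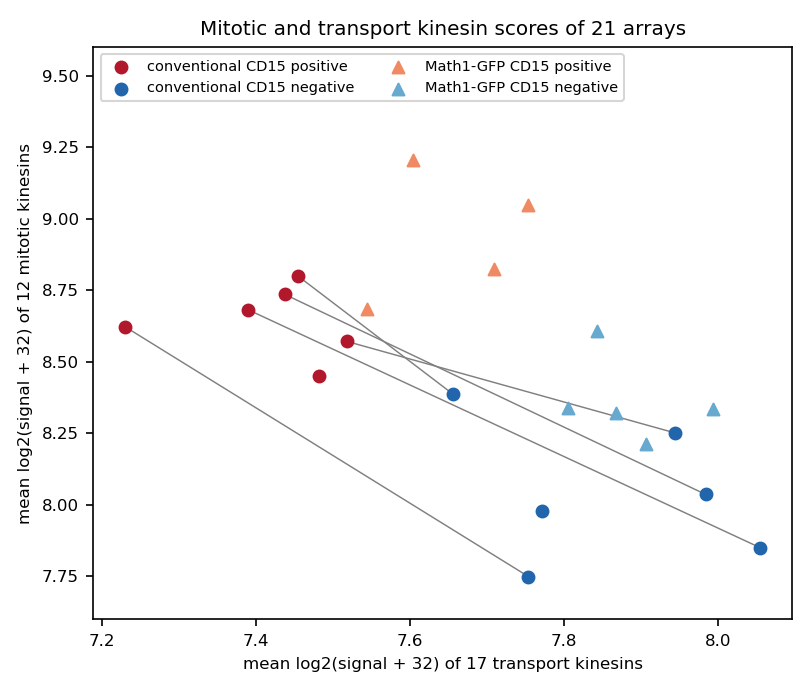
Each of the 21 arrays is placed by the mean log2(signal + 32) of 17 transport kinesins (x axis) and of 12 mitotic kinesins (y axis), with grey lines joining the 5 conventional pairs. Each line runs from a CD15 positive array at upper left to a CD15 negative one at lower right.

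Averaged per array, the mitotic kinesins had a mean log2 value of 8.45 to 8.80 on conventional CD15 positive and 7.75 to 8.39 on CD15 negative arrays, and of 8.68 to 9.20 and 8.21 to 8.61 on the Math1-GFP arrays. The transport kinesins had 7.23 to 7.52 and 7.66 to 8.05 in conventional, and 7.54 to 7.75 and 7.80 to 7.99 in Math1-GFP tumours. The mean of the mitotic minus that of the transport kinesins was 0.97 to 1.39 against -0.20 to 0.73 in conventional and 1.11 to 1.60 against 0.31 to 0.76 in Math1-GFP tumours. The fractions did not overlap on this measure in either model. Among the conventional CD15 negative arrays, number 6 had the highest mitotic and the lowest transport mean. These means describe the classes and were not tested.

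The size of the CD15 difference was compared between the models directly. No kinesin passed, and neither did any gene (0% called; 279 genes had an unadjusted p under 0.05). The kinesins among those 279 were Kif5c, whose difference was less negative in Math1-GFP tumours by 0.57 ± 0.23 (limma's unadjusted p = 0.021), and Kif5a, by 0.81 ± 0.39 (limma's unadjusted p = 0.049), both with an adjusted p of 1. For the mitotic kinesins the change between models had a median of 0.01 and ran from -0.26 to 0.16. The intervals were wide: for Kif11 it ran from -0.49 to 0.59.

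Averaged over the 2 models, 16 kinesins passed, where 9.74% of all genes did. Higher were 10 of 12 mitotic kinesins (3.77% of all genes), which added Kif20b (0.58 ± 0.13, adjusted p = 0.0071), Kif18a (0.46 ± 0.12, adjusted p = 0.013) and Kifc5b (0.61 ± 0.19, adjusted p = 0.043) to the 7 of the conventional comparison. The transport kinesins that were lower were the 6 called in conventional tumours (5.97% of all genes were lower). Kif22 had 0.35 (adjusted p = 0.059, and 0.026 with the pairs as a block) and Kif14 0.24 (adjusted p = 0.29). The call of Kifc5b was lost in 15 of the 21 fits that left out 1 array (adjusted p up to 0.096), and that of Kifc1 (0.51 ± 0.13, adjusted p = 0.017) without Math1-GFP arrays 1 and 2 (adjusted p = 0.071). In this average 7 of 8 neuron markers and 2 of 7 granule neuron precursor markers were lower, and 1 astrocyte and 1 oligodendrocyte lineage marker were higher; their part was not tested.

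Between the models, averaged over the fractions, 11 of the 34 kinesins tested differed, where 39.2% of all genes did. The share of kinesins that differed was thus not above that of all genes. Through the brightest probe set, 9 of the 34 were higher in Math1-GFP tumours and 2 lower, beside 18.7% and 20.5% of all genes. By direction, the share called higher was above that of all genes and the share called lower below it, and these shares were not tested. Of the 12 mitotic kinesins, 5 were higher. Higher in Math1-GFP tumours were the mitotic kinesins Kif23 (0.62 ± 0.15, adjusted p = 0.0021), Kif18a (0.50 ± 0.12, adjusted p = 0.0021), Kif4 (0.44 ± 0.10, adjusted p = 0.0019), Kif20b (0.35, adjusted p = 0.039) and Kif11 (0.35, adjusted p = 0.040). Of these, Kif20b and Kif11 lost their call under quantile normalization (adjusted p of 0.11 and 0.051), and in 13 and 10 of the 21 fits that left out 1 array (adjusted p up to 0.10 and 0.11). These calls rest on the brightest probe set. In the fit of every probe set, the dimmer ones of Kif11 had 0.65 (adjusted p = 4.4e-04) and 1.21 (adjusted p = 1.3e-08). The dimmer one of Kif20b past the filter had 0.27 (adjusted p = 0.088). All 12 mitotic kinesins had values above 0, with a median of 0.30. Of all genes called in this contrast, 47.7% were higher, and 37.0% after quantile normalization.

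Among the transport kinesins, Kif1a was higher in Math1-GFP tumours by 0.83 ± 0.10 (adjusted p = 3.4e-06), although it was lower in the CD15 positive cells. The related Kif1b was higher by 0.42 ± 0.13 (adjusted p = 0.015), Kif3b by 0.59 ± 0.09 (adjusted p = 2.7e-05) and Kif16b, a motor of endosomes, by 0.29 ± 0.10 (adjusted p = 0.031). The call of Kif16b was lost after quantile normalization (0.15, adjusted p = 0.27), and without conventional CD15 negative array 4, Math1-GFP CD15 negative array 10 or CD15 positive array 9 (adjusted p of 0.054, 0.0503 and 0.084). Kif1c was lower, at -0.53 ± 0.18 (adjusted p = 0.024), a call lost without Math1-GFP CD15 positive array 7 (-0.44, adjusted p = 0.066). Kif5b was lower, at -0.31 ± 0.09 (adjusted p = 0.015), but with the mean of its 6 probe sets it was 0.24 in the other direction, so no direction is given for it. Kif5a (0.16, adjusted p = 0.54) and Kif5c (0.16, adjusted p = 0.28) did not pass, but in the fit of every probe set a dimmer probe set of Kif5a had 0.52 (adjusted p = 0.0023) and the dimmest of 3 past the filter for Kif5c 1.23 (adjusted p = 9.3e-07), while its remaining one had -0.22. No direction is given for these either. Probe sets of Kif1b also disagreed, 2 of 7 pointing the other way (-0.29 to 0.89). For Kif2a 4 of 5 probe sets, for Kif2c 2 of 4 and for Kif3a 1 of 4 passed in that fit, though the brightest did not.

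**Figure D5:**
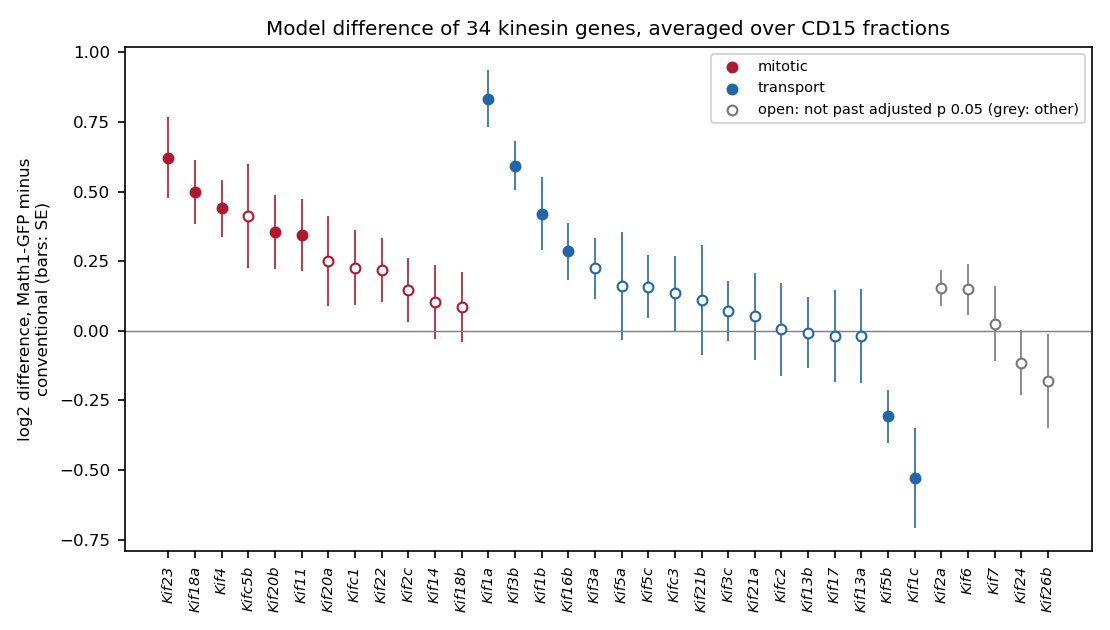
The log2 difference between Math1-GFP and conventional tumours, averaged over CD15 fractions (y axis, bars of 1 SE), is plotted for the 34 kinesin genes (x axis) coloured by class, with filled marks for adjusted p under 0.05. Kif1a is the highest at 0.83 and Kif1c the lowest at -0.53, and all 12 mitotic kinesins lie above 0.

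All 8 microglia markers were lower in Math1-GFP tumours (median -1.43), where 20.5% of all genes were called lower and 18.7% higher. Of the tested markers, 2 of 5 for astrocytes and 2 of 4 for the oligodendrocyte lineage were higher. Of 8 neuron markers, 1 was higher and 1 lower, no more than the shares of all genes. Of the 7 granule neuron precursor markers, 2 were higher (up to 1.03). Their part in the model difference was not tested. No label ties arrays of both models to a common batch, so a batch between the models cannot be told apart from the model.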

How the data were processed

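RNA of 21 samples was measured on Affymetrix mouse genome arrays. The authors deposited linear intensities per probe set; their software and settings are not given in the sources used here. Judged by its values, each array has a mean of 150.0 after removing 2% of values at each end. Array medians ran from 22.1 to 32.7, and the number of arrays limits the precision.

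Values were used as deposited, as log2(signal + 32). The 64 control probe sets, those with several symbols (932) or none (9211) in the platform annotation, and those with a mean below the 40th percentile (a signal of 15.5) were left out; 1 probe set naming Kif27 beside another gene fell to this rule. The brightest probe set stood for a gene. A model of 4 group means was fitted to all arrays in R 4.3.3 with limma 3.58.1, leaving 17 residual degrees of freedom, with 5 contrasts, two-sided moderated tests, Benjamini-Hochberg adjustment over 12367 genes and a threshold of 0.05. The fit was checked on simulated data. Figures were drawn with matplotlib.

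Deviations from group means correlated at 0.58 to 0.76 in the 5 same-numbered conventional pairs and at most at 0.48 otherwise, so the numbers were taken to pair these samples; the fit without the block is reported, and the blocked one where it changes a call. Math1-GFP groups share no numbers. Kinesins with values are those past the threshold in a contrast plus Kif5a, Kif5c, Kif1a, Kif3a, Kif2a and Kif7; Kif6, Kif14, Kif21a and Kif22 were added after their values were seen; signals are given by group for Kif5a, Kif5c, Kif1a, Kif3a and Kif7, and for the 4 of smallest p in each class. Of each partner list at most 4 that passed were named, and Racgap1 and Neurod1 were added after their values were seen. Members and lists were chosen with earlier results of these data known. Alternatives were another scaling, pseudocount, filter, probe set rule, samples, weights and blocks, and leaving out each array.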

Additional observations from a re-analysis of the deposited data

Results flagged for a closer look

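Of 100 groups of 4 to 6 arrays examined for the named kinesins and the class means, 5 had an array far from the others of its group by Dixon's criterion, and chance marks about 1 in 20 groups. On the log2(signal + 32) scale, Kif16b was low on Math1-GFP CD15 negative array 8, at 6.54 with the next array at 6.73. Kif18a was high on conventional CD15 negative array 2, at 7.80 with the next at 7.55. Kif1a was high on Math1-GFP CD15 negative array 2, at 7.87 with the next at 7.43. Kif2a was high on Math1-GFP CD15 positive array 7, at 9.31 with the next at 9.25. Kif5b was high on Math1-GFP CD15 negative array 4, at 9.91 with the next at 9.78.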

How the results depend on the processing

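Leaving out 1 array, 12 to 14 kinesins passed in the conventional comparison, 15 to 16 in the average and 8 to 12 between models. Of these, 3 to 5 mitotic kinesins were higher and 1 to 2 transport kinesins lower between models. The transport median ran from -0.44 to -0.22 in conventional and from -0.35 to -0.15 in Math1-GFP tumours.

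With a pseudocount of 1 the transport median was -0.47 in conventional tumours and -0.45 in the average; with the larger pseudocount it was -0.18 in conventional and -0.094 in Math1-GFP tumours. Without Math1-GFP arrays 1 and 2 it was -0.16 in Math1-GFP tumours. With array weights 5 kinesins passed in Math1-GFP tumours (4 mitotic higher, 1 transport lower), with the replicate block 3 (2 and 1), and with consecutive Math1-GFP numbers (1 and 2, 5 and 6, 7 and 8, 9 and 10) in the block as well, without Math1-GFP array 4, 10 (6 and 4); the labels do not state this pairing, chosen after seeing the data. The block of conventional pairs alone changed no call of a kinesin other than those given in the report; it left out array 1 of each conventional group, and leaving these out with no block gave 0 in Math1-GFP tumours. Within array 1 and number 6, 0 kinesins passed in conventional tumours (0 mitotic higher, 0 transport lower; transport median -0.22), 7 in the average (4 and 3) and 6 between models (2 mitotic higher, 0 transport lower); fewer arrays entered. Between models, 3 mitotic kinesins were higher with no filter or with numbered conventional arrays only, and 1 transport kinesin was lower with the mean of probe sets. The cause was not tested.

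Apart from Kif5b between models, the differences that reversed had not passed. Kif3a in Math1-GFP tumours gave 0.0070 (quantile normalization), 0.013 (array weights), 0.061 (without arrays 1 and 2) and -0.086 to 0.071 leaving out 1 array; in conventional tumours 0.068 (array 1 and number 6) and -0.14 to 0.026. Kif2a gave -0.086 in Math1-GFP tumours with the mean of probe sets; in conventional tumours 0.0027 (array weights), 0.034 (array 1 and number 6) and -0.050 to 0.021. Kif7 in conventional tumours gave -0.045 (array weights), -0.018 (either replicate block, or numbered arrays only), -0.074 (numbers 2 to 5) and -0.034 to 0.22. Kif5b between models gave 0.24 with the mean of probe sets. The number of arrays per group limits what small differences can show.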
